A study of Mus musculus with 6 samples.

Results

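Neat1, Malat1 and the 3 paraspeckle proteins Sfpq, Nono and Pspc1 were followed in mouse brain after a transient stroke. The members were the rows of the deposited expression table that carry these symbols, 5 of 23473 rows with a gene symbol. The 18 rows of FANTOM3 cDNA clones (sequenced full-length mouse cDNAs, 33353 rows in the table) that lie along Neat1 (12 rows) and Malat1 (6 rows) were described with them. Total RNA of brain from adult male C57BL/6 mice, aged 8 to 9 weeks, was depleted of ribosomal RNA and sequenced. In the ischemia/reperfusion group (I/R, 3 libraries) a silicone-coated filament blocked the middle cerebral artery for 60 min and reperfusion lasted 6 h. The sham group (3 libraries) had the same surgery without the filament, under the same chloral hydrate anesthesia. The labels name neither the brain region nor the hemisphere taken, and do not say that each library is a separate mouse, so the tests speak for the variation among these libraries, some of which may be technical.

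Neat1 and Malat1 are long noncoding RNAs that stay in the nucleus and are transcribed from neighbouring genes. Neat1 is the scaffold of the paraspeckle, a nuclear body that holds back proteins and edited RNAs. A short polyadenylated form (Neat1_1) and a long form (Neat1_2) start at the same site, and only the long form builds the body. Malat1 lies in nuclear speckles, where splicing factors are stored, and is one of the most abundant RNAs of neurons. Sfpq, Nono and Pspc1 are the DBHS (Drosophila behaviour, human splicing) proteins, RNA-binding proteins that pair with each other and coat Neat1.

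Libraries held between 45425867 and 49686109 counts. Clone rows took 20.6 to 21.1% of them, and a read can be counted in a gene row and in several clone rows. Over all 40170 rows tested, edgeR's quasi-likelihood test with Benjamini-Hochberg adjustment called 1 row higher (0.00249%) and 0 lower, and found an unadjusted p under 0.05 for 3508 higher rows (8.73%) and 2773 lower ones (6.90%). Among the 16642 symbol rows tested, 0 passed the adjustment, and 1064 (6.39%) were higher and 1449 (8.71%) lower before it. This split moved with the scaling: 42.3% of such symbol rows were higher here and 62.9% with upper-quartile factors (55.9% and 71.1% over all rows). Markers of neurons, astrocytes, oligodendrocytes and 5 other cell types were read in every library, with none at 0. In such bulk samples, fewer cells of a type and less RNA per cell cannot be told apart.

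All 5 members were well covered and passed the low-count filter. Neat1, Malat1 and Sfpq were higher in every I/R library than in every sham library, while Nono and Pspc1 overlapped between groups. Thus 3 of 5 members did not overlap, where 10.3% of symbol rows did so in that direction and 8.79% in the other, and the same 3 of 5 had an unadjusted edgeR p under 0.05, where 6.39% did. None of the 5 passed the adjusted threshold of 0.05 in edgeR. DESeq2 called Neat1 and Malat1, 2 of 5, where it called 0.885% of symbol rows higher and 0.641% lower. The members were chosen with earlier results of these data known, so these shares describe the 5 rows and are not a test of them. Levels below are CPM, the counts of a row in every 1000000 counts of its library, and fold changes come from edgeR on the log2 scale with TMM scaling.

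**Figure D1:**
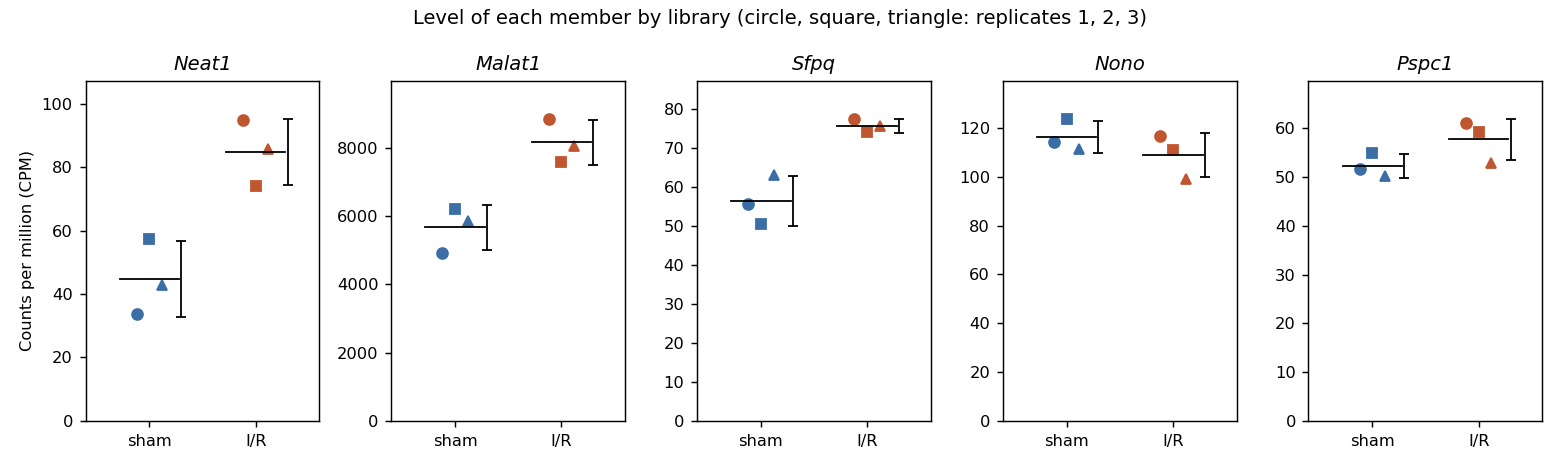
Level of each member in each library, in CPM on a linear axis from 0, with the group mean (horizontal line) and SD (bar at the side, n = 3). The I/R points of Neat1, Malat1 and Sfpq lie above all their sham points, and those of Nono and Pspc1 overlap them.

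Neat1 was at 33.6, 57.3 and 42.9 CPM in sham libraries 1, 2 and 3, and at 94.8, 74.1 and 85.6 CPM in I/R libraries 1, 2 and 3. The lowest I/R library stood above the highest sham library, and sham replicate 2 was the highest of its group. The mean was 44.6 ± 12.0 CPM in sham and 84.8 ± 10.4 CPM in I/R (SD, n = 3), and the log2 fold change was 0.87 ± 0.18 (SE). The unadjusted p was 0.00105 and the adjusted p 0.150 (edgeR), against an adjusted p of 0.00119 with DESeq2 and 0.164 with limma-voom. Leaving out 1 library at a time gave log2 fold changes of 0.70 to 1.10. Without sham replicate 2 the edgeR adjusted p was 0.0289, the only edgeR setting run in which Neat1 was called.

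Malat1 was at 4919, 6201 and 5866 CPM in sham libraries 1 to 3, and at 8844, 7566 and 8042 CPM in I/R libraries 1 to 3. It alone took 0.492 to 0.620% of all counts in sham and 0.757 to 0.884% in I/R. As for Neat1, replicate 1 was the lowest sham library and the highest I/R library. The mean went from 5662 ± 665 to 8151 ± 646 CPM (SD, n = 3), a log2 fold change of 0.47 ± 0.11 (SE). The adjusted p was 0.151 with edgeR, 0.0332 with DESeq2 and 0.179 with limma-voom. Leave-one-out values ran from 0.37 to 0.55 and none passed in edgeR.

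Malat1 counts exceeded Neat1 counts by a factor of 146, 108 and 137 in sham libraries 1 to 3 and of 93.3, 102 and 94.0 in I/R libraries 1 to 3. The ratio was thus lower in every I/R library, by 0.42 on the log2 scale. An exact two-sided permutation test gave p = 0.1, the smallest that 3 against 3 libraries allow, and 0.275 adjusted over the 11 ratios computed here. Neat1 had the larger relative difference of the pair in these libraries.

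In per-length units the order of levels differed between the groups. Deposited RPKM (reads per kilobase of row and per 1000000 counts) in sham were 811 ± 95.2 for Malat1, 47.1 ± 2.65 for Nono, 22.0 ± 1.01 for Pspc1, 15.2 ± 1.70 for Sfpq and 14.0 ± 3.76 for Neat1 (SD, n = 3). Sfpq and Neat1 did not differ beyond their spread there. In I/R they were 1167 ± 92.5 for Malat1, 44.1 ± 3.62 for Nono, 26.7 ± 3.26 for Neat1, 24.3 ± 1.78 for Pspc1 and 20.4 ± 0.474 for Sfpq. Neat1 moved from the last place to the third, where it and Pspc1 did not differ beyond their spread.

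The authors' deposited table gives the same directions with far smaller q-values. It lists log2 fold changes of mean RPKM of 0.93 for Neat1 (q = 2.1e-14), 0.53 for Malat1 (q = 2.59e-14) and 0.42 for Sfpq (q = 1.24e-14). For Nono the authors' deposited table has -0.10 with q = 0.00509, and for Pspc1 0.14 with q = 0.00201. These last 2 rows pass a q of 0.05 in that table although their groups overlap in the libraries. Which test gave those q-values is not stated in the sources at hand.

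The windows upstream of 3 members are printed because Malat1 and Sfpq were higher in every I/R library while Nono, of the same family as Sfpq, was not. RefSeq's promoter table (build GRCm38.p6) has an entry for 4 of the 5 members, all but Neat1. Each window is the 250 bases before the start that this table uses, 5′ to 3′ on the gene's strand, with matches on either strand in capitals. RefSeq's gene spans begin farther upstream for Sfpq (127020716) and Nono (101429560), so the Sfpq window lies inside its gene and the Nono window partly so. The motifs searched were TGACG (a core of the cAMP response element) and ACGTG (hypoxia response element core). The others were the AP-1 site TGANTCA, the heat shock element core GAANNTTC and the CCAAT box.
Malat1, chr19:5802673-5802922, minus strand: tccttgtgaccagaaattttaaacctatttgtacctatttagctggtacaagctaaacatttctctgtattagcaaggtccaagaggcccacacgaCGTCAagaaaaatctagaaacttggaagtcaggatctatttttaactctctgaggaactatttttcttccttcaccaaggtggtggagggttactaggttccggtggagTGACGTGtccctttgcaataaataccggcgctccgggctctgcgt
Sfpq, chr4:127021051-127021300, plus strand: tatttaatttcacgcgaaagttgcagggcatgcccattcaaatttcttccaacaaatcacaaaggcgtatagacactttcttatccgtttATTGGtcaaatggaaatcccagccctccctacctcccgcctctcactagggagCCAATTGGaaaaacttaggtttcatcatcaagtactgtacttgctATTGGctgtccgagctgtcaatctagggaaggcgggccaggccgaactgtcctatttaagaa
Nono, chrX:101429401-101429650, plus strand: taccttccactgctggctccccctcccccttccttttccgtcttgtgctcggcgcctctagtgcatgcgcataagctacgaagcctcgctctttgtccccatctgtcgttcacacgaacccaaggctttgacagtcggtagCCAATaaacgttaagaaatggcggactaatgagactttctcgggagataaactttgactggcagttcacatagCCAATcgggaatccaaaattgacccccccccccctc
The Malat1 window holds TGACG at 154 and 45 bases upstream of that start and ACGTG at 43 bases, the last 2 overlapping in the run TGACGTG. The Sfpq window holds CCAAT 4 times (160, 107, 104 and 62 bases upstream), with the middle pair overlapping on opposite strands, and the Nono window 2 times (109 and 36 bases). Pspc1 (chr14:56778319-56778568, minus strand) has 1 match of CCAAT, 176 bases upstream. No window of the 4 holds TGANTCA or GAANNTTC. Of 32851 RefSeq windows of this length, 17.8% hold TGACG, 16.6% ACGTG, 6.75% TGANTCA, 6.69% GAANNTTC and 33.8% CCAAT. A match is a run of letters and not a site. Sfpq, Nono and Pspc1 share CCAAT, and the Malat1 window has none.

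Clone rows give the log2 fold change by position along each RNA. The Neat1 row spans chr19:5842302-5845478 (mm10, minus strand), 3177 bases, while RefSeq's Neat1 gene (GRCm38.p6) runs over 5824708 to 5845480. The row therefore counts the region shared by the short and the long form, and not the part that only the long form has. Of the 12 clone rows, 10 lie over this first region, 4 of them with the same counts as the gene row in every library. All 10 were higher in every I/R library, with log2 fold changes of 0.79 to 0.92 and edgeR adjusted p of 0.150 to 0.174, and DESeq2 called all 10. Among all clone rows tested, 16.6% were higher and 5.72% lower without overlap, edgeR called 0.00425% higher, and DESeq2 called 1.28% higher and 0.766% lower. These 10 rows share reads and are not separate support.

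The other 2 clone rows lie where only the long form is annotated. Clone fantom3_F630311A01 (chr19:5838075-5840178) lies 5300 to 7403 bases downstream of the Neat1 start, inside RefSeq's Neat1 gene. It had 206, 685 and 207 counts in sham libraries 1 to 3 and 263, 525 and 323 in I/R libraries 1 to 3. The groups overlapped and replicate 2 was the highest of each. Its log2 fold change was 0.02 ± 0.63 (SE, edgeR adjusted p = 0.990). Clone fantom3_5830408G10 (chr19:5834118-5835940), 9538 to 11360 bases downstream, had 140, 348 and 94 counts in sham and 189, 312 and 174 in I/R. Again replicate 2 was the highest of each group, and the log2 fold change was 0.22 ± 0.55 (SE, edgeR adjusted p = 0.878). Both values turned on sham replicate 2: without it they were 0.88 (fantom3_F630311A01) and 0.98 (fantom3_5830408G10), and without I/R replicate 2 -0.34 and -0.12, the lowest edgeR adjusted p without 1 library being 0.317. A difference was not detectable with this spread, which does not show that the long form stayed level.

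Together the long-form rows gave 6.96, 21.5 and 6.16 CPM in sham libraries 1 to 3 and 9.31, 18.2 and 10.9 CPM in I/R libraries 1 to 3. The 2 highest values belonged to sham replicate 2 and I/R replicate 2. Per base, this region had 0.168, 0.303 and 0.116 of the coverage of the gene row in sham and 0.0794, 0.198 and 0.103 in I/R. Summed counts of the 2 long-form rows were also divided by those of the 8 clone rows within the first 3200 bases. Of these 8, 4 repeat the counts of the gene row. This ratio was lower in I/R by 0.62 on the log2 scale, with overlapping groups and an exact two-sided permutation p of 0.4 (0.489 adjusted over the 11 ratios). Without 1 library at a time the difference ran from -0.998 to -0.24, so its direction held while its size did not. The difference seen in the Neat1 row was thus not shown to reach the part specific to the long form, and the test of the contrast itself did not pass.

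**Figure D2:**
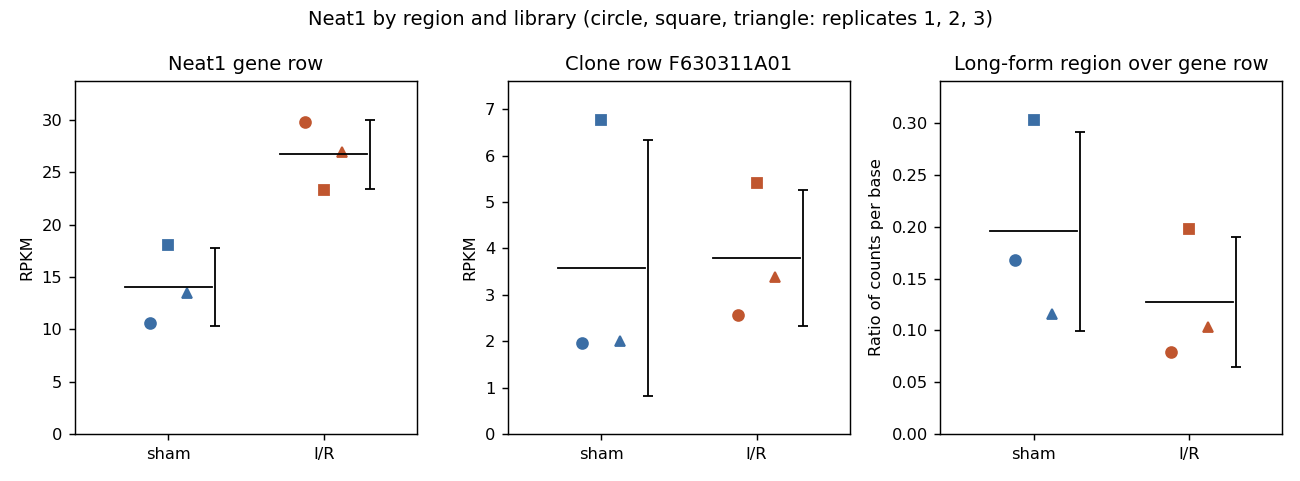
Neat1 by library: RPKM of the gene row, RPKM of clone row fantom3_F630311A01 and the per-base ratio of the long-form clone rows to the gene row, each on a linear axis from 0 with group mean and SD (n = 3). Gene row points separate by group, while in the other panels replicate 2 (squares) is the highest of both groups and the groups overlap.

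All 6 clone rows along Malat1 were higher in every I/R library, and 5 of 6 were called by DESeq2. Among all clone rows tested, 16.6% were higher and 5.72% lower without overlap, and DESeq2 called 1.28% higher and 0.766% lower. These 6 rows share reads with the Malat1 row and in part with each other, and are not separate support. They lie in Malat1's row, chr19:5795690-5802671 on the minus strand, which RefSeq annotates as a lncRNA of the same extent to within 1 base. From the 5′ to the 3′ end the log2 fold changes were 0.78 ± 0.14 (fantom3_2310038L10), 0.78 ± 0.14 (fantom3_E430031C03), 0.52 ± 0.15 (fantom3_2210401K01), 0.46 ± 0.10 (fantom3_9430072K23), 0.40 ± 0.10 (fantom3_G430136C21) and 0.39 ± 0.09 (fantom3_C530009H14), each with its SE. The values were thus lower toward the 3′ end. Each SE is that of 1 row, and the rows share libraries and reads, so it does not measure differences between clones. The first 2 clones cover nearly the same stretch. The edgeR adjusted p of the 6 rows ran from 0.129 to 0.198.

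The 5′-most clone, fantom3_2310038L10, is 239 bases long and begins 1 base before the row. It was at 69.3, 107 and 94.2 CPM in sham libraries 1 to 3 and at 167, 150 and 167 CPM in I/R libraries 1 to 3. fantom3_C530009H14, 4917 to 6671 bases from the start, was at 1967, 2250 and 2195 CPM in sham and at 2941, 2862 and 2951 CPM in I/R. In RPKM the coverage at the 5′ end was 377 ± 80.0 in sham and 676 ± 41.9 in I/R, below that near the 3′ end (1218 ± 85.5 and 1663 ± 27.8; SD, n = 3). Malat1 was therefore covered unevenly in both groups, with less at its start.

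The ratio of fantom3_E430031C03, the first 230 bases, to the gene row was 0.0134, 0.0163 and 0.0152 in sham (mean 0.0150) and 0.0179, 0.0188 and 0.0197 in I/R (mean 0.0188). Every I/R library lay above every sham library, by 0.33 on the log2 scale, with an exact two-sided permutation p of 0.1, the smallest possible, and 0.275 adjusted over 11 ratios. This ratio was chosen after its values were seen. The ratio of clone counts on the 3′ side of the row's midpoint to those on the 5′ side was 6.41, 5.03 and 5.43 in sham and 4.37, 5.40 and 5.05 in I/R, overlapping, with a log2 difference of -0.18 and p = 0.3 in the same exact test. In 25 other genes of 1 block with clones on both sides the difference ranged from -0.45 to 0.42 with a median of -0.02, and in 4 of them it was at or below that of Malat1. A shift of coverage between the sides of Malat1 was not shown.

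**Figure D3:**
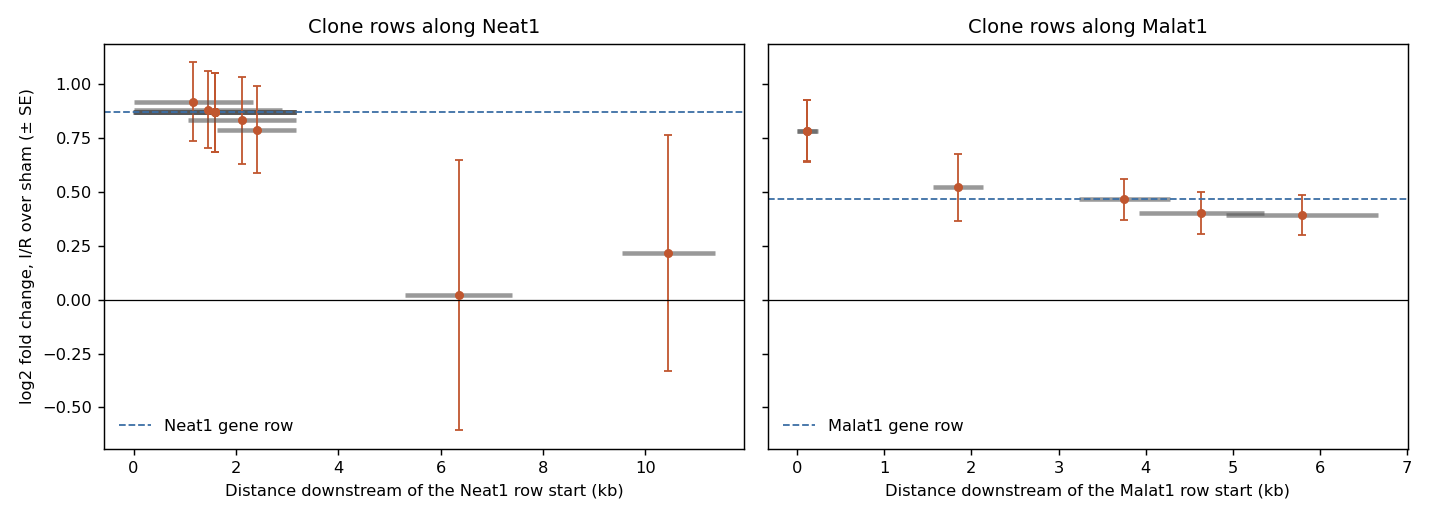
Log2 fold change (I/R over sham, ± SE from edgeR) of each clone row against its distance from the start of the Neat1 or Malat1 row in kb, with grey bars for the stretch each clone covers. Neat1 clones over the gene row sit at 0.79 to 0.92 and the 2 beyond it at 0.02 and 0.22 with wide errors, and Malat1 clones go from 0.78 at the start to 0.39 near the end.

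Sfpq, which is needed for Neat1 to accumulate and for paraspeckles to form, was at 55.6, 50.5 and 63.0 CPM in sham libraries 1 to 3. In I/R libraries 1 to 3 it was at 77.4, 73.9 and 75.6 CPM. The I/R libraries lay close together and all above the sham libraries. The mean went from 56.4 ± 6.31 to 75.7 ± 1.75 CPM (SD, n = 3), a log2 fold change of 0.37 ± 0.10 (SE). The adjusted p was 0.168 with edgeR and 0.0965 with DESeq2, so neither tool called it.

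Nono, a frequent partner of Sfpq, was at 114, 124 and 111 CPM in sham libraries 1 to 3 and at 117, 111 and 99.0 CPM in I/R libraries 1 to 3. The groups overlapped, and the log2 fold change was -0.15 ± 0.10 (SE, edgeR adjusted p = 0.477). Pspc1, the family member used as a marker of paraspeckles, was at 51.7, 54.9 and 50.2 CPM in sham and at 61.0, 59.2 and 52.9 CPM in I/R. Here too the groups overlapped, at 0.09 ± 0.10 (SE, edgeR adjusted p = 0.706). I/R replicate 3 was the lowest I/R library for Nono and for Pspc1.

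The ratios between the DBHS genes separated the groups more clearly than the levels of Nono and Pspc1 did. Sfpq over Nono counts was 0.487, 0.408 and 0.567 in sham and 0.664, 0.667 and 0.764 in I/R, higher in every I/R library by 0.53 on the log2 scale. Pspc1 over Nono was 0.453, 0.444 and 0.452 in sham and 0.523, 0.534 and 0.535 in I/R, higher in every I/R library by 0.24. Both gave an exact two-sided permutation p of 0.1, the smallest possible, and 0.275 adjusted over 11 ratios. Sfpq over Pspc1 overlapped, with a log2 difference of 0.29 and p = 0.2 in the same exact test. These 3 ratios were added after the levels were seen.

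The Pspc1 to Nono ratio was the tightest measure among the members. Its coefficient of variation was 1.08% in sham and 1.20% in I/R, below the 2.27 to 2.53% that counting error alone gives for these counts. The libraries of a group thus lay closer together than their depth resolves, and the spread of the ratio should be read as at least the counting error.

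Clone rows within Sfpq all had positive log2 fold changes, some near that of its gene row (0.37) and some lower. fantom3_1110004P21 (0.37 ± 0.19 SE) and fantom3_2810416M14 (0.40 ± 0.24 SE) were above sham in every I/R library, with edgeR adjusted p of 0.373 and 0.426. Among all clone rows tested, 16.6% were higher and 5.72% lower without overlap. The spans of these clones overlap each other and the gene row, so they can share reads and are not separate support. fantom3_5930434O18 (0.18 ± 0.14 SE) and fantom3_5730453G22 (0.10 ± 0.25 SE) overlapped between groups. fantom3_C430024E05 (chr4:127033277-127037006), a single block at the 3′ end that also covers introns, was at 34.0, 27.2 and 37.7 CPM in sham and at 44.3, 36.0 and 28.2 CPM in I/R. The groups overlapped, with a log2 fold change of 0.08 ± 0.17 (SE, edgeR adjusted p = 0.848). Relative to the gene row it was at 0.613, 0.539 and 0.598 in sham and at 0.573, 0.487 and 0.373 in I/R, a log2 difference of -0.31 with p = 0.2 (exact two-sided permutation test). The lowest value, in I/R replicate 3, set most of that difference.

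The pathway around the members was read through lists of genes, which were also chosen with earlier results of these data known. Over all symbol rows tested, 7360 of 16642 log2 fold changes were positive and 9282 negative. Among the 6 further proteins that paraspeckles need for assembly, 5 had a positive and 1 a negative log2 fold change, with a median of 0.26 beside -0.04 over all symbol rows. Rbm14 and Hnrnph3, 2 of the 6, were higher in every I/R library, where 10.3% of symbol rows were. Both had an unadjusted edgeR p under 0.05, where 6.39% of symbol rows were higher, and none of the 6 passed the adjustment. Rbm14, a prion-like RNA-binding protein, was at 23.4, 22.6 and 24.3 CPM in sham and at 31.1, 28.8 and 31.6 CPM in I/R (log2 fold change 0.33 ± 0.10 SE, adjusted p = 0.196). Hnrnph3, a splicing regulator, was at 8.84, 13.3 and 10.8 CPM in sham and at 16.8, 14.7 and 16.2 CPM in I/R (0.47 ± 0.15 SE, adjusted p = 0.211). Smarca4 (a chromatin remodeler, 0.20), Dazap1 (0.02) and Hnrnpk (-0.16) overlapped between groups. Without sham replicate 1, 1 of the 6 had an unadjusted p under 0.05. Without I/R replicate 1, 4 of the 6 did.

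Of 26 other proteins found in paraspeckles, 25 matched a row and were tested. Their log2 fold changes were positive for 15 and negative for 10 with a median of 0.03. At an unadjusted edgeR p under 0.05, 2 were higher and 2 lower, close to the 6.39% and 8.71% of symbol rows that were. By library, 6 of the 25 were above and 2 below sham in every I/R library, beside 10.3% and 8.79% of symbol rows. Taf15, an RNA-binding protein, was at 6.46, 7.04 and 6.20 CPM in sham and at 10.7, 10.4 and 12.0 CPM in I/R. Every I/R library was above every sham library (log2 fold change 0.68 ± 0.13 SE), with an adjusted p of 0.138 in edgeR and 0.00407 in DESeq2. Cirbp, a cold-inducible RNA-binding protein, had a mean of 105 ± 17.2 CPM in sham and 76.4 ± 15.2 CPM in I/R with overlapping groups (-0.51 ± 0.17 SE, edgeR adjusted p = 0.222). The 3 most abundant, Matr3 (-0.17), Hnrnpa1 (0.12) and Tardbp (0.03), overlapped. The count at the unadjusted p was 5 higher and 1 lower without sham replicate 2, and 1 higher and 5 lower without I/R replicate 1, so it turned with single libraries. With upper-quartile factors 6 were higher and 1 lower.

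Nuclear speckle proteins, the neighbours of Malat1, were centred near 0, with 9 of 17 positive and a median of 0.02. At the unadjusted threshold 3 were higher and 0 lower, where 6.39% and 8.71% of symbol rows were. Srrm2, a scaffold of the speckle, was at 193, 167 and 189 CPM in sham and at 218, 247 and 307 CPM in I/R (log2 fold change 0.43 ± 0.12 SE, edgeR adjusted p = 0.184). Srsf11 was at 55.1, 59.7 and 56.4 CPM in sham and at 78.6, 68.3 and 77.1 CPM in I/R (0.33 ± 0.09 SE). Both were above sham in every I/R library. The 3 most abundant were Son, another scaffold, at 0.14, the splicing factor Sf3b1 at 0.02 and Srsf5 at -0.04. Son too was above sham in every I/R library. In all, 4 of the 17 were above and 0 below in this way, beside 10.3% and 8.79% of symbol rows. Of the 17, 15 were positive without sham replicate 2 and 6 without I/R replicate 1.

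Genes of RNase P and RNase Z, the enzymes that cut the 3′ ends of Malat1 and of the long form of Neat1, were mostly negative. Of 13 tested, 11 had a negative log2 fold change, with a median of -0.18, beside 9282 of 16642 symbol rows and a median of -0.04. At the unadjusted p 3 were lower and 1 higher, where 8.71% and 6.39% of symbol rows were, and 2 were lower with upper-quartile factors. Without I/R replicate 3, 9 of the 13 were negative. Pop5, a protein subunit of RNase P, was at 46.5, 55.0 and 51.3 CPM in sham and at 39.4, 39.4 and 42.9 CPM in I/R, below sham in every library (-0.38 ± 0.10 SE, edgeR adjusted p = 0.167). Rpp14, another subunit, was also below in every I/R library (-0.27 ± 0.10 SE). Pop1, the largest subunit, went against them, from 5.40 ± 0.466 to 7.80 ± 0.260 CPM (SD, n = 3; 0.47 ± 0.14 SE). Rpph1, the RNA subunit, overlapped at -0.18 ± 0.11.

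Of 7 RNA-binding and m6A proteins studied on Malat1 or Neat1, 3 were positive, with a median of -0.01. At the unadjusted p 2 were higher, where 6.39% of symbol rows were. Mettl3 and Mettl16, both m6A methyltransferases, had log2 fold changes of 0.28 ± 0.12 and 0.27 ± 0.12 (SE), and Hnrnpc (-0.01), Elavl1 (-0.09) and Wtap (-0.12) were the most abundant. Without sham replicate 1, sham replicate 2 or I/R replicate 3, 0 of the 7 had an unadjusted p under 0.05, and without I/R replicate 1 it was 1 higher and 1 lower. With upper-quartile factors the median was 0.04. Of 7 transcription factors studied at the Neat1 promoter, 6 were positive with a median of 0.27, and 3 were higher at the unadjusted p: Trp53 (p53, 0.39 ± 0.14), Arnt (the partner of hypoxia-inducible factors, 0.34 ± 0.13) and Hsf1 (the heat shock factor, 0.32 ± 0.13). Each of these 3 was above sham in every I/R library. Among symbol rows, 6.39% were higher at the unadjusted p and 10.3% were above sham in every I/R library. The hypoxia factor Hif1a (-0.13), Stat3 (0.20) and Epas1 (0.18) were the most abundant and overlapped. Only 1 of the 7 had an unadjusted p under 0.05 without sham replicate 2, and 0 without I/R replicate 3. Without I/R replicate 1 it was 4 higher and 1 lower. Without I/R replicate 2, or with upper-quartile factors, 4 were higher.

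Other nuclear long noncoding RNAs had values on both sides of 0, and none passed the edgeR adjustment. Of 9 tested, 6 were positive with a median of 0.36. At an unadjusted edgeR p under 0.05, 5 were higher and 2 lower, where 6.39% and 8.71% of symbol rows were. The lower ones, Tug1 (-0.28 ± 0.11 SE) and Rmst (-0.34 ± 0.15 SE), overlapped between groups, and 0 were lower without sham replicate 1 or without I/R replicate 2. Mirg was at 10.8, 10.5 and 10.8 CPM in sham and at 23.4, 18.2 and 19.2 CPM in I/R (log2 fold change 0.86 ± 0.12 SE, adjusted p = 0.123 in edgeR and 1.5e-05 in DESeq2). Meg3, of the same imprinted cluster, was at 596, 656 and 641 CPM in sham and at 874, 1182 and 1228 CPM in I/R (0.74 ± 0.13 SE, adjusted p = 0.123 in edgeR and 0.000405 in DESeq2). Rian, of that cluster too, overlapped at 0.03 ± 0.11, and Snhg11 was at 0.45 ± 0.12. The relative difference of Neat1 was close to that of Mirg, and that of Malat1 close to that of Snhg11. Without I/R replicate 1, 6 of the 9 passed the edgeR adjustment, where the same fit called 1057 rows in all.

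**Figure D4:**
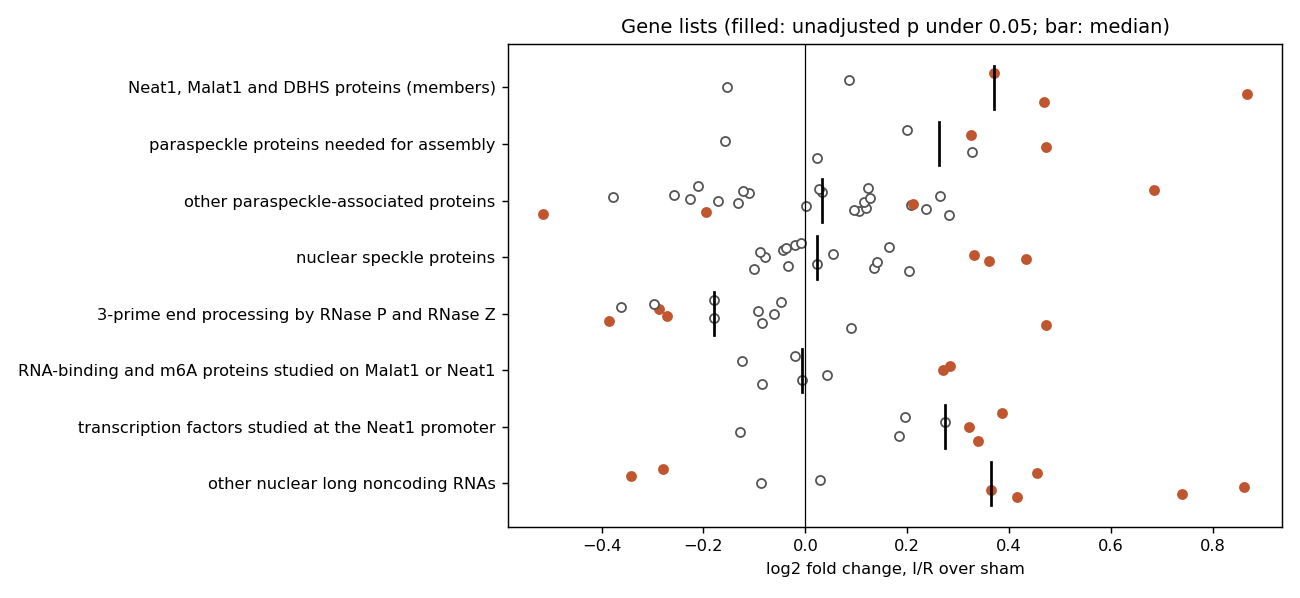
Log2 fold change (I/R over sham, edgeR) of each tested gene by list, filled where the unadjusted p was under 0.05, with the list's median as a vertical bar. Neat1 and Malat1 lie on the positive side, as do 6 of the 9 other nuclear lncRNAs, speckle and other paraspeckle proteins are centred near 0, and the RNase P and RNase Z list is centred at -0.18.

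Summed markers of some cell types differed between the groups beside these results, while those of others overlapped. The 8 neutrophil and monocyte markers summed to 18.3 to 25.4 CPM in sham and 27.6 to 37.9 CPM in I/R, and 5 of 8 were above sham in every I/R library. Astrocyte markers summed to 5389 to 5427 CPM in sham and 4691 to 5190 CPM in I/R, with 3 of 8 below in every I/R library. Over all symbol rows tested, 10.3% were above and 8.79% below sham in every I/R library. Microglia markers summed to 180 to 193 CPM in sham and 195 to 236 CPM in I/R. Of these 8, 3 were above sham in every I/R library. Summed neuron markers overlapped, at 3672 to 3725 CPM in sham and 3443 to 4007 CPM in I/R. Of 8 neuron markers, 1 was above and 1 below sham in every I/R library. Summed endothelial markers overlapped too, at 146 to 173 CPM and 160 to 190 CPM, with 1 of 7 above in every I/R library. Oligodendrocyte markers were at 4910 to 6179 CPM in sham and at 4186, 5113 and 10760 CPM in I/R libraries 1 to 3. Oligodendrocyte precursor markers summed to 201 to 234 CPM in sham and 134 to 244 CPM in I/R, where 1 of 4, Pdgfra, was below sham in every I/R library (-0.76 ± 0.26 SE; adjusted p 0.255 in edgeR and 0.0253 in DESeq2). Erythroid markers summed to 86.4 to 141 CPM in sham and 124 to 200 CPM in I/R. The part of these markers in the differences of Neat1, Malat1 and Sfpq was not tested.

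Genes around the locus had values on both sides of 0. Within 300 kb of Neat1 and Malat1 lie 38 gene rows, and of the 36 tested 17 were positive and 19 negative, with a median of -0.04. At the unadjusted p 4 were higher and 1 lower, beside 6.39% and 8.71% of symbol rows. Frmd8 (chr19:5850974-5875208, minus strand) is the nearest gene upstream of Neat1, 5496 bases away. It was at 13.4, 13.1 and 14.6 CPM in sham and at 20.5, 18.2 and 34.3 CPM in I/R, above sham in every I/R library and highest in I/R replicate 3, the library with the high oligodendrocyte markers. Its log2 fold change was 0.78 ± 0.21 (SE), with an adjusted p of 0.184 in edgeR and 0.0203 in DESeq2, and 0.45 without I/R replicate 3. Whether the counting used strand is not stated, so it is not known whether reads from opposite strands were kept apart here.

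On the other side, Ltbp3, 37158 bases from Malat1, was at 0.32 ± 0.15 (SE) and Slc25a45, next to Frmd8, at 0.57 ± 0.22. Farther out, 1700020D05Rik (under 1 CPM on average in both groups) was at 1.05 ± 0.39 and Znhit2 at -0.31 ± 0.10. None of these passed the adjustment in edgeR.

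Across the 6 libraries, the symbol rows most like Neat1 were ranked by Pearson correlation of log2 CPM (0.5 CPM added) among 14452 rows of at least 1 CPM. The 5 highest were Sik2 (r = 0.999), Hnrnph3 (0.993), Ifrd1 (0.992), Myo1e (0.989) and Nfkbid (0.988), and Malat1 ranked 8 (0.988). For Malat1 they were Fam227a (0.993), Cckbr (0.993), Swap70 (0.993), Sik2 (0.991) and Nfkbid (0.989), with Neat1 at rank 6. Sfpq (0.753) and Pspc1 (0.740) were less like Neat1, and Nono was at -0.272. With 6 points that share the group difference and the libraries, and so many rows ranked, such values are a description only. Sik2, a salt-inducible kinase, followed both lncRNAs: it was at 18.1, 22.2 and 19.9 CPM in sham and at 27.6, 25.1 and 26.3 CPM in I/R, with replicate 1 lowest in sham and highest in I/R.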

How the data were processed

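Per the labels' protocols, Trizol RNA lost its ribosomal part with Ribo-Zero, and NEBNext Ultra RNA libraries were read from both ends on a HiSeq2500. Per the submitters' processing notes the build was mm10; the sources used here do not state the aligner, the counter, the annotation or strand use. The deposited counts are raw whole numbers. The deposited RPKM equal count per kilobase and per 1000000 of the column total in 100% of values (tolerance 0.001). The authors' deposited comparison holds mean RPKM, log2 fold changes, p-values and q-values; positions and row lengths, other deposited values, were used as given.

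CPM are counts over the column total. Counts of 40170 rows were tested with edgeR 4.0.16 (R 4.3.3; TMM, filterByExpr, robust quasi-likelihood F test, two-sided, threshold 0.05), and the SE is the fold change over the square root of F. DESeq2 1.42.0 and limma-voom (limma 3.58.1), other scalings, filters and leaving out each library were alternatives. The 3-count floor corresponds to 0.0604 to 0.0660 CPM and reflects counting alone. Between replicates the differences exceeded sampling noise (chi-square per degree of freedom 7.73 to 27.5). Ratios had exact permutation tests. The members and lists were chosen with earlier results of these data known. Named were all members and assembly proteins, the 3 most abundant and 2 smallest p of each other list, the nearest 2 neighbours a side, any neighbour at an unadjusted p under 0.05, and the 5 most alike rows to each lncRNA. Arnt and Sfpq's clones were named after their values were seen. Of the genes this rule names, 2 are not reported here.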

Additional observations from a re-analysis of the deposited data

How the results depend on the processing

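All 5 members kept the direction of their log2 fold change in every alternative. DESeq2 took Neat1 (0.86) and Malat1 (0.46) past the threshold, and leaving out 1 library moved Neat1 between 0.70 and 1.10 and Malat1 between 0.37 and 0.55. Rows called over the whole table, 1 here, were 2 with upper-quartile factors, 77 with no low-count filter, 0 at a mean of at least 1 CPM, 584 with DESeq2, 4 with limma-voom, 0 with gene-symbol rows only and 0 to 1057 without 1 library (34 without sham replicate 2, 1057 without I/R replicate 1 and 43 without I/R replicate 2). Clone rows called along Neat1 and Malat1, 0 here, were 2 with no filter, 15 with DESeq2 and 0 to 8 without 1 library, with 8 without sham replicate 2 and 2 without I/R replicate 1. List members called, 0 here, were 2 with no filter, 3 with DESeq2 and 0 to 9 without 1 library, with 9 without I/R replicate 1 and 1 without I/R replicate 2. DESeq2 called 1 locus neighbour. The cause of these moves was not tested, and the counts for lists, neighbours and the ratios other than Malat1 to Neat1, the Neat1 long-form region and the Malat1 sides were alternatives or results added after seeing the data.

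Leaving out 1 library moved the log2 fold changes of fantom3_F630311A01 from -0.34 to 0.88, fantom3_5830408G10 from -0.13 to 0.98, Dazap1 from -0.0101 to 0.0477, Tardbp from -0.0662 to 0.15, Sf3b1 from -0.11 to 0.11, Srsf5 from -0.16 to 0.15, Hnrnpc from -0.0490 to 0.0241, Stat3 from -0.0184 to 0.37 and Rian from -0.0559 to 0.0712. Hnrnpc was at 0.0350 with upper-quartile factors, 0.0270 at a mean of at least 1 CPM and 0.0377 with gene-symbol rows only, where Srsf5 was at 0.000268. The Frmd8 to Neat1 ratio, -0.18 with an exact permutation p of 0.8, ran from -0.44 to 0.00386. The Malat1 to Neat1 ratio ran from -0.55 to -0.34 and the ratio of the 3′ to the 5′ side of Malat1 from -0.26 to -0.09 without 1 library.

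Replicate numbers are shared by the groups in the labels, but deviations of same-numbered libraries correlated at -0.0911, 0.0316 and 0.158, so the numbers were not taken to pair them. With the number as a block, Neat1 was at 0.90, Malat1 at 0.47 and Sfpq at 0.37, 0 rows were called, and no call on a member changed.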
